A study of Arabidopsis thaliana and Marchantia polymorpha and Mesotaenium endlicherianum with 120 samples.

Results

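Indole glucosinolates are the tryptophan-derived members of the mustard oil glucosides of Arabidopsis thaliana, and 10 genes of their synthesis were followed here across 16 groups of seedling RNA-seq libraries. The 10 genes were chosen by gene identifier from a table of 32833 genes. They were the transcription factor genes MYB34 (AT5G60890), MYB51 (AT1G18570) and MYB122 (AT1G74080), the core enzyme genes CYP79B2 (AT4G39950), CYP79B3 (AT2G22330), CYP83B1 (AT4G31500), SUR1 (AT2G20610), UGT74B1 (AT1G24100) and SOT16 (AT1G74100), and the side-chain hydroxylase gene CYP81F2 (AT5G57220). The list was drawn up after results from these libraries were known, and the comparison that prompted it is not recorded, so counts over the list describe it and are no independent evidence about the pathway. The mutant lines were Atpif4-2, Atphyb-9 and Athy5-2, each compared with the accession Col-0. PIF4 is a transcription factor that promotes growth in warmth, PHYB is a red-light photoreceptor that also senses temperature, and HY5 is a transcription factor that promotes light responses. Whole seedlings were 7 days old, after 2 days at 20 °C under continuous white light of 100 µmol m-2 s-1 that all groups shared. The last 5 days were spent at 24 or 16 °C under 100 or 10 µmol m-2 s-1, written below as light 100 and light 10. There were 3 libraries for each line and condition, 48 in all.

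In the pathway, CYP79B2 and CYP79B3 turn tryptophan into indole-3-acetaldoxime, an intermediate shared with the defence compound camalexin and with a route to the growth hormone auxin. CYP83B1 commits the oxime to glucosinolates, SUR1 is the C-S lyase that releases a thiol from the sulfur conjugate, UGT74B1 adds glucose and SOT16 adds sulfate. CYP81F2 then hydroxylates the indole ring, a step linked to defence against microbes and insects. MYB34, MYB51 and MYB122 are related R2R3-type MYB proteins that switch on the enzyme genes.

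The 250 bases before the annotated start are shown for 5 of the 10 genes, read from the TAIR10.1 assembly on the strand of the gene. The CYP79B2 and CYP79B3 windows are shown because these enzymes do the same step, and the capitals mark bases that both windows share.
CYP79B2: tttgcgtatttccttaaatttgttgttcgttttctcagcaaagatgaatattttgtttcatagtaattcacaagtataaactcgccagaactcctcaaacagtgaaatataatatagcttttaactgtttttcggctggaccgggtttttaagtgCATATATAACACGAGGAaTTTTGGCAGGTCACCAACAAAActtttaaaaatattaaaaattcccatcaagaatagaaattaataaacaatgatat
CYP79B3: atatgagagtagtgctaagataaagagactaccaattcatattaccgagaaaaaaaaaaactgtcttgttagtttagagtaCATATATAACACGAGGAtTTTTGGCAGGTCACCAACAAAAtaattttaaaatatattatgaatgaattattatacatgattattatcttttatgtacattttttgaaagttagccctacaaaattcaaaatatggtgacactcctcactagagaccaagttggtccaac
The CYP79B2 window lies at chr4:18524792-18525041 and the CYP79B3 window at chr2:9488163-9488412, both on the plus strand. The shared runs are 17 and 22 bases long and stand 1 base apart. They begin 95 and 77 bases before the start of CYP79B2, and 169 and 151 bases before that of CYP79B3. Each run occurred in only 2 of 27443 annotated promoter windows of this length. The runs were picked after the sequences had been seen, so this rarity is a description.

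MYB34, MYB51 and SOT16 are shown because MYB34 mRNA was lower and the mRNAs of the regulator gene MYB51 and the enzyme gene SOT16 were higher in the Athy5-2 seedlings at 24 °C described below. In these windows capitals mark ACGT, the core of sites that HY5-type proteins bind, and ACCNACC, a motif of R2R3-type MYB proteins, on either strand.
MYB34: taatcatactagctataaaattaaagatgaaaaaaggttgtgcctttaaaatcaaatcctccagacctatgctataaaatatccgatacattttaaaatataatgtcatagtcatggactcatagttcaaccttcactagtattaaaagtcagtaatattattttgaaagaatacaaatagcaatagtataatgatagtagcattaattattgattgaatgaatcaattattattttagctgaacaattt
MYB51: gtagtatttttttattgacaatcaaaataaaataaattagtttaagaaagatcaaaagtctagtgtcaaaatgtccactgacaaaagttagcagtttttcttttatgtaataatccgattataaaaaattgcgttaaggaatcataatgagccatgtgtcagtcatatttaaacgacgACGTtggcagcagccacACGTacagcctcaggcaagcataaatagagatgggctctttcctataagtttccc
SOT16: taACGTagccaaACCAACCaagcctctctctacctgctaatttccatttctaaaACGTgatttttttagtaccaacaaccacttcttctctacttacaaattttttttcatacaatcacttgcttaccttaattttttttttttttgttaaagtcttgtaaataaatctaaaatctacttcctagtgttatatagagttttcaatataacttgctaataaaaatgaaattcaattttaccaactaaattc
The MYB34 window lies at chr5:24494041-24494290 and the MYB51 window at chr1:6389149-6389398, both on the plus strand. The SOT16 window lies at chr1:27865695-27865944 on the minus strand. ACGT was found in the windows of 6 of the 10 genes and in 44.1% of all windows, 2 times each in MYB51 and SOT16 and not in MYB34, CYP79B2, CYP79B3 or CYP81F2. The longer G-box, CACGTG, which contains ACGT, was found in 1 of the 10, SUR1, against 6.49% of all windows. The E-box letters CANNTG, which include the G-box, were found in 5 of the 10 and in 55.3% of all. ACCNACC was found in 2 of the 10, UGT74B1 and SOT16, and in 6.1% of all. A match is a string of letters and not a measured binding site, and no match says only that the letters are not in this window.

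Total counts ran between 30806701 and 44043446 per library, with a median of 41944926. PIF4 mRNA in Atpif4-2 lay below every Col-0 library in 3 of the 4 conditions and overlapped at 16 °C and light 100 (9.96 to 10.7 against 10.7 to 12.7 counts scaled to a common library size, CPM). PHYB mRNA in Atphyb-9 lay below Col-0 in all 4 conditions. HY5 mRNA in Athy5-2 lay below Col-0 in 3 conditions and overlapped at 16 °C and light 10 (4.36 to 6.29 against 5.15 to 7.19 CPM), so in those 2 groups the mRNA level does not tell the mutant from Col-0. Reads on 15 ribosomal RNA genes took 0.535% to 14.1% of a library at light 100 and 0.902% to 33.4% at light 10. Shoot and root marker mRNAs were both present in every group. In whole seedlings, fewer cells of a type and less mRNA per cell cannot be told apart. Whether replicates came from separate plates or plantings is not stated in the labels, so the p-values measure the spread between libraries.

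All 10 genes passed the filter on low counts and were tested. Per kilobase of exon, CYP83B1 had the highest median level of the 10 over the 48 libraries, 114 CPM per kb, followed by SOT16 at 64.3, SUR1 at 47.3, UGT74B1 at 41.7, CYP79B2 at 34.8 and CYP79B3 at 27.8 CPM per kb. The regulators and the modifying enzyme were lower: MYB34 had 11.8, CYP81F2 6.26, MYB51 4.48 and MYB122 0.511 CPM per kb. In proportion, the largest spread between libraries was that of CYP81F2, between 0.791 and 80.1 CPM per kb, and CYP79B3 had the smallest, between 17.1 and 74.2 CPM per kb.

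For CYP79B2, Athy5-2 at 24 °C and light 10 was the highest of the 16 groups, with 310 ± 121 CPM (SD, n = 3 for this and every mean below), and none of its libraries overlapped those of the next group, Athy5-2 at 24 °C and light 100 with 161 ± 20.8 CPM. Atphyb-9 at 16 °C and light 10 was lowest, with 19.2 ± 4.29 CPM, and did not overlap the group above it, Col-0 at 24 °C and light 10 with 35.4 ± 4.62 CPM. Most neighbouring groups between these overlapped. MYB34 had a different order. Its 3 highest groups were Col-0 at 24 °C and light 100 (35.2 ± 3.34 CPM), Col-0 at 16 °C and light 100 (34.3 ± 3.39 CPM) and Atpif4-2 at 24 °C and light 100 (33.7 ± 3.21 CPM), which overlapped one another. Its lowest group was Athy5-2 at 24 °C and light 10, with 6.38 ± 1.97 CPM, the group in which 8 of the other 9 genes had their highest mean. SUR1, the remaining gene, was highest in Col-0 at 16 °C and light 100, with 145 ± 3.60 CPM. MYB51 was highest in Athy5-2 at 24 °C, with 49.6 ± 18.9 CPM at light 10 and 32.6 ± 8.77 CPM at light 100.

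**Figure D1:**
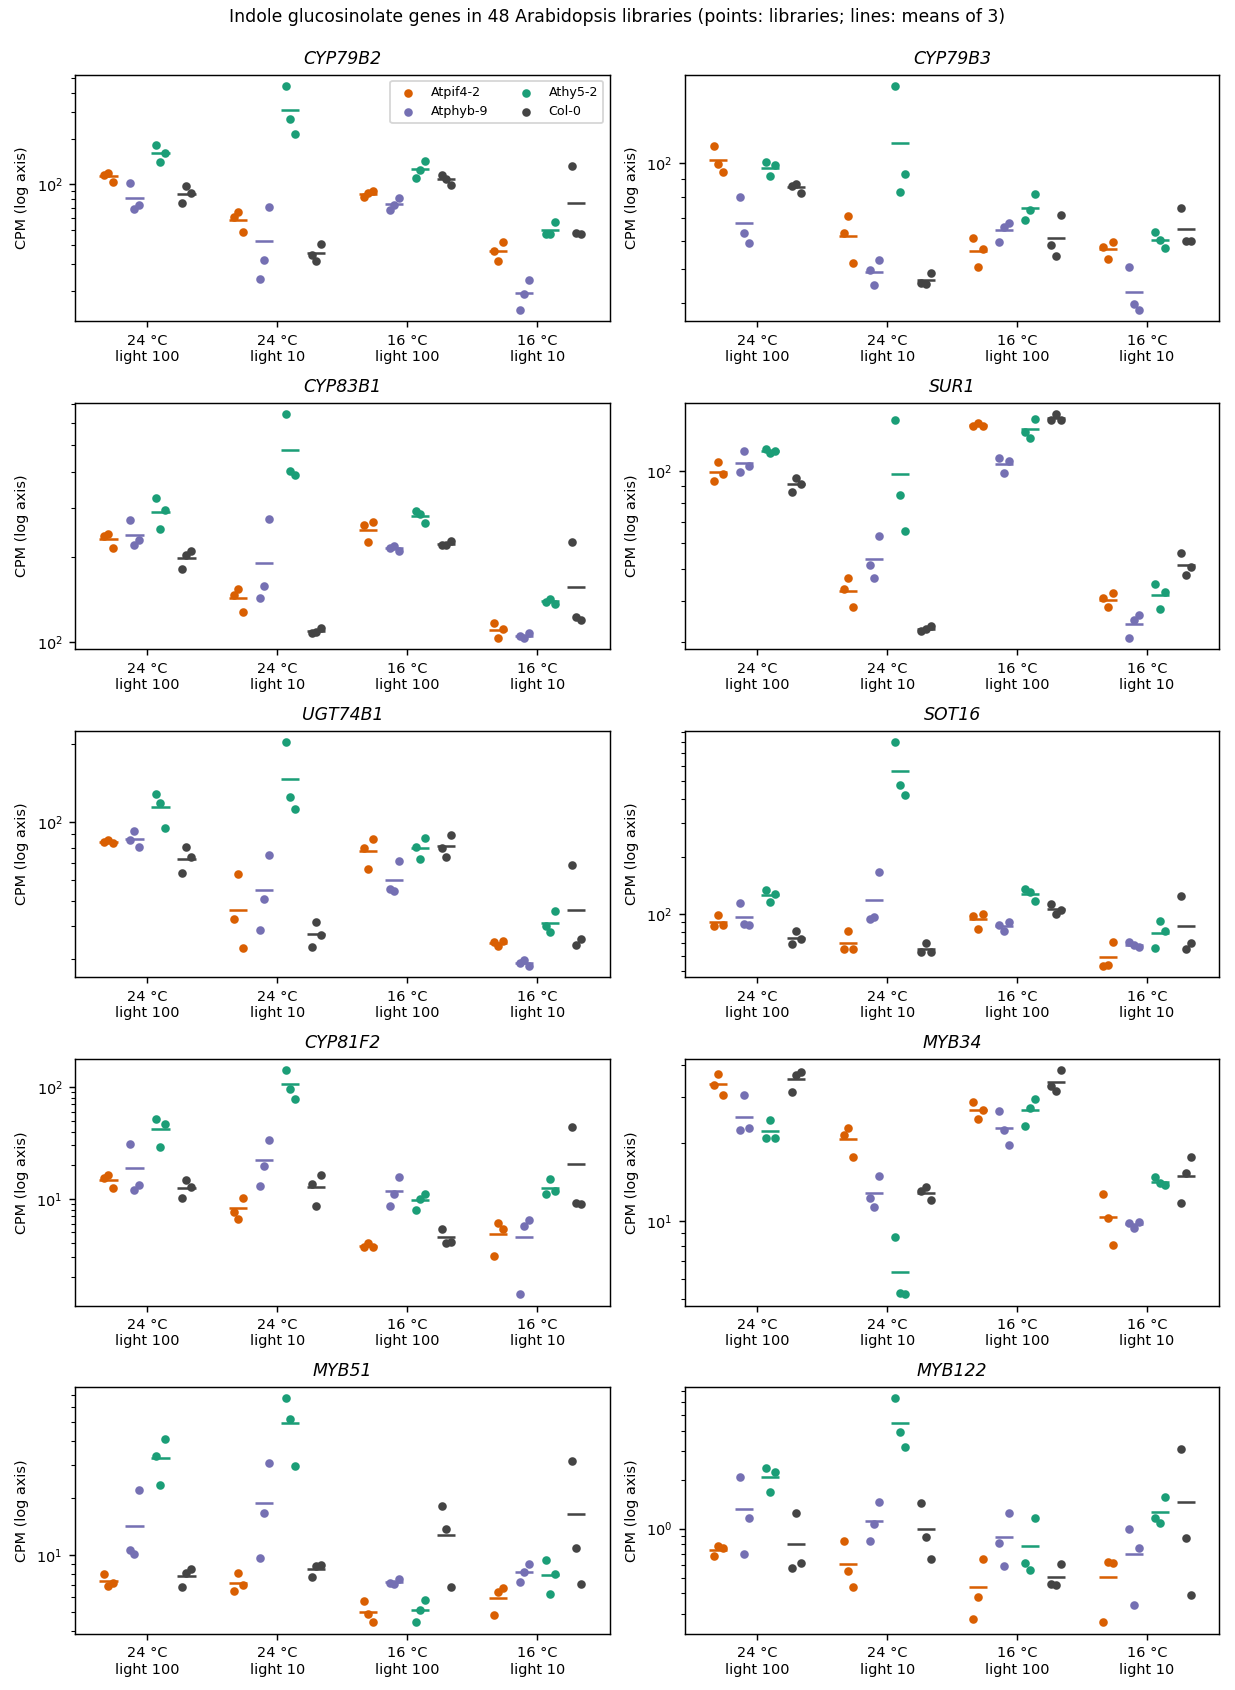
Level of each of the 10 genes in CPM (vertical log axis) in all 48 libraries, by condition and line; each point is 1 library and each bar the mean of 3. Athy5-2 at 24 °C and light 10 is the highest group for CYP79B2 (310 CPM) and the lowest for MYB34 (6.38 CPM), and 1 Col-0 library at 16 °C and light 10 stands above the other 2 for CYP79B2, CYP81F2 and MYB51.

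Col-0 at 16 °C and light 10 held a library that stood apart in the levels of these genes. In replicate 1 the median of the 10 genes was 1.92 times the mean of the other 2 replicates, with a range of 0.711 for MYB34 to 4.85 for CYP81F2, and 9 of the 10 genes were highest in it. CYP79B2 was at 132 CPM in replicate 1 and at 47.7 and 46.98 CPM in the other 2. CYP81F2 was at 43.5 CPM against 9.13 and 8.998 CPM, and MYB51 at 31.5 CPM against 10.9 and 7.09 CPM. Over all genes, a chi-square measure of the difference between replicates was 104 for 1 and 2, 146 for 1 and 3 and 94.6 for 2 and 3. Calls that use this group are given with and without that library. Because the values of the 10 genes singled it out, the calls without it describe how far results rest on it. In 2 other groups, 1 library was highest for all 10 genes: replicate 1 of Athy5-2 at 24 °C and light 10 (median 1.75 times the other 2) and replicate 3 of Atphyb-9 at 24 °C and light 10 (median 1.71 times).

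In Col-0 more light raised MYB34 and the enzyme genes CYP83B1, SUR1 and UGT74B1 at both temperatures, and CYP79B2 and CYP79B3 at 24 °C. At 24 °C, light 100 over light 10, 6 of the 10 genes were higher and none lower at an adjusted p under 0.05, against 28.6% of all 22828 genes tested that were called in either direction (14.2% higher and 14.4% lower). They were CYP79B2, CYP79B3, CYP83B1, SUR1, UGT74B1 and MYB34, and the median log2 change of the 10 was 0.87, against 0.02 over all genes.

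SUR1 had 86.1, 95.4 and 91.2 CPM at light 100 and 32.3, 33.0 and 33.5 CPM at light 10 at 24 °C. MYB34 had 31.4, 36.7 and 37.6 CPM at light 100 against 13.03, 13.5 and 12 CPM at light 10. CYP79B2 had 75.7, 96.9 and 88.1 CPM at light 100 against 34.1, 31.5 and 40.5 CPM at light 10. In all 3 genes every light 100 library lay above every light 10 library. The log2 changes were 1.46 ± 0.14 for SUR1 (SE, edgeR quasi-likelihood test, Benjamini-Hochberg adjusted p = 8.82e-11), 1.45 ± 0.16 for MYB34 (edgeR adjusted p = 1.98e-09) and 1.30 ± 0.31 for CYP79B2 (edgeR adjusted p = 0.0015). UGT74B1 (0.96 ± 0.22), CYP79B3 (0.87 ± 0.15) and CYP83B1 (0.86 ± 0.18) were higher by less. All 6 calls held when any 1 library was left out. SOT16 differed by 0.18, MYB51 by -0.12, MYB122 by -0.29 and CYP81F2 by -0.03 on the log2 scale, and these were not called.

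At 16 °C, light 100 over light 10, 4 of the 10 genes were higher and 2 lower in Col-0, against 37% of all genes called (17.4% higher and 19.6% lower). SUR1 (log2 change 1.49 ± 0.14, edgeR adjusted p = 2.99e-11), MYB34 (1.20 ± 0.16, edgeR adjusted p = 6.55e-08), UGT74B1 (0.82 ± 0.22) and CYP83B1 (0.51 ± 0.18) were higher. CYP81F2 (-2.18 ± 0.49, edgeR adjusted p = 0.000559) and MYB122 (-1.52 ± 0.51) were lower. Both of these calls rested on replicate 1 at light 10: without it CYP81F2 was at -1.001 and MYB122 at -0.32, neither was called, and the adjusted p for CYP81F2 was 0.0788. Without that library 6 genes were higher and none lower, against 30.1% of all genes, and CYP79B2 (1.19) and SOT16 (0.64) were then among them. The call of CYP83B1 was lost when replicate 2 or 3 at light 10 or replicate 3 at light 100 was left out, while SUR1, MYB34 and UGT74B1 kept theirs in all 6.

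In Col-0 seedlings, SUR1 was lower in warmth at both light levels, while each of the other warmth calls was lost when 1 library or another was left out. At light 100, 24 over 16 °C, 2 genes were higher and 2 lower, against 35.9% of all genes called (18.9% higher and 17% lower), so the share of the 10 was near that background. At light 10 there were 4 lower and none higher, against 22.8% of all genes (11.4% higher and 11.4% lower). SUR1 was lower in both. It had 86.1, 95.4 and 91.2 CPM at 24 °C against 143, 149 and 143 CPM at 16 °C under light 100, and 32.3, 33.0 and 33.5 CPM at 24 °C against 56.0, 48.2 and 50.7 CPM at 16 °C under light 10. The groups did not overlap, and the log2 changes were -0.67 ± 0.14 (edgeR adjusted p = 0.000143) and -0.65 ± 0.14 (edgeR adjusted p = 0.000529). Leaving out any 1 library kept both calls.

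The other calls for warmth were less firm. At light 100, CYP79B3 was higher (log2 change 0.48 ± 0.15), CYP81F2 was higher (1.48 ± 0.48) and SOT16 was lower (-0.51 ± 0.20). The SOT16 call was lost when any 1 of the 6 libraries was left out. CYP79B3 lost its call without replicate 1 or 2 at 16 °C, and CYP81F2 without replicate 2 or 3 at 16 °C, and the count of 4 became 1 to 3. That range stands without the share of all genes called in each fit and describes the list alone. At light 10, CYP79B2 (-1.10 ± 0.31), CYP79B3 (-0.48 ± 0.15) and CYP83B1 (-0.51 ± 0.18) were lower at 24 °C, but without Col-0 replicate 1 at 16 °C their changes were no longer called and 1 of the 10 genes, SUR1 (-0.59), was lower, against 20.6% of all genes. Without that library, CYP79B2 differed by -0.42 and CYP83B1 by -0.15. MYB34 showed 0.04 and -0.22 on the log2 scale for warmth at light 100 and light 10 and was called in neither.

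The warmth effect differed between the light levels for 2 of the 10 genes in Col-0, against 7.17% of all genes (4.55% higher and 2.62% lower). CYP79B3 had a warmth effect higher by 0.95 ± 0.22 on the log2 scale at light 100 than at light 10 (edgeR adjusted p = 0.00314). Its libraries had 86.5, 87.6 and 82.3 CPM at 24 °C and 58.5, 54.6 and 71.3 CPM at 16 °C under light 100, and 45.7, 45.5 and 48.7 CPM at 24 °C and 74.7, 60.0 and 60.2 CPM at 16 °C under light 10. The 24 °C libraries thus lay above the 16 °C libraries at light 100 and below them at light 10. The call held without any 1 library, at 0.84 without replicate 1 at 16 °C and light 10. For CYP81F2 the difference was 2.15 ± 0.67 (edgeR adjusted p = 0.0439), and the call was lost in 9 of 12 fits without 1 library. Without Col-0 replicate 1 at 16 °C and light 10 it was 0.97, and 1 of the 10 genes was called against 5.91% of all genes.

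**Figure D2:**
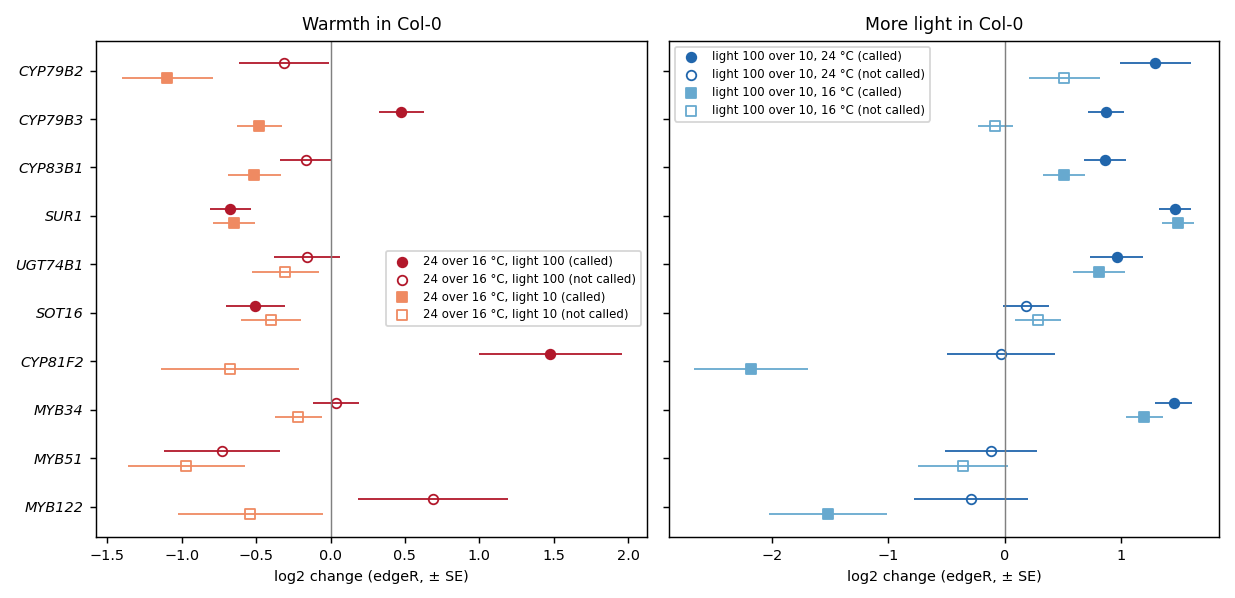
Log2 change in Col-0 for warmth (left, 24 over 16 °C) and for more light (right, light 100 over light 10) from the edgeR fit, with the SE as bars; filled symbols were called. SUR1 lies at -0.67 and -0.65 for warmth and at 1.46 and 1.49 for light, and CYP79B3 lies on opposite sides of 0 for warmth at the 2 light levels.

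Most of the 10 genes, but not SUR1 or MYB34, had their highest mean in Athy5-2 seedlings kept warm in dim light. At 24 °C and light 10, 9 of the 10 genes were higher than in Col-0 and MYB34 was lower, against 46.5% of all genes called (22.2% higher and 24.3% lower). The median log2 difference of the 10 was 2.15, against -0.05 over all genes. In each of the 10 genes the Athy5-2 and Col-0 libraries did not overlap. The share of all genes without overlap is not given, so this count describes the list alone. In Atpif4-2 at 24 °C and light 100, 5 of the 10 genes did not overlap Col-0 and none was called.

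CYP79B2, the entry enzyme, had 445, 270 and 213 CPM in Athy5-2, against 34.1, 31.5 and 40.5 CPM in Col-0. Its log2 difference was 3.13 ± 0.33 (edgeR adjusted p = 2.87e-09). CYP79B3, which does the same step, had 166, 82.9 and 93.3 CPM in Athy5-2 against 45.7, 45.5 and 48.7 CPM in Col-0, a log2 difference of 1.29 ± 0.16 (edgeR adjusted p = 8.46e-09). Both rose, and their values on the log2 scale were 3.13 and 1.29, a gap that was not tested. CYP83B1, the next enzyme, had 645, 405 and 393 CPM in Athy5-2 against 108, 109 and 113 CPM in Col-0, a log2 difference of 2.13 ± 0.19 (edgeR adjusted p = 9.59e-12). SOT16, the last core step, had 802, 475 and 419 CPM in Athy5-2 against 63.0, 70.3 and 63.0 CPM in Col-0, a log2 difference of 3.11 ± 0.22 (edgeR adjusted p = 1.27e-13). SUR1 (1.57 ± 0.14) and UGT74B1 (1.98 ± 0.23), between them in the chain, were higher by less.

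CYP81F2, the ring hydroxylase, had 142, 96.2 and 78.2 CPM in Athy5-2 against 13.5, 8.59 and 16.46 CPM in Col-0, a log2 difference of 3.04 ± 0.49 (edgeR adjusted p = 5.92e-06). The 3 regulators did not move together. MYB51 had 67.1, 52.1 and 29.6 CPM in Athy5-2 against 7.65, 8.76 and 8.83 CPM in Col-0, a log2 difference of 2.56 ± 0.41 (edgeR adjusted p = 4.4e-06). MYB122 averaged 4.47 ± 1.66 CPM in Athy5-2 and 0.996 ± 0.407 CPM in Col-0, a log2 difference of 2.17 ± 0.49 (edgeR adjusted p = 0.000368). MYB34 had 8.65, 5.28 and 5.22 CPM in Athy5-2 against 13.03, 13.5 and 12 CPM in Col-0, a log2 difference of -0.99 ± 0.17 (edgeR adjusted p = 5.93e-06). So MYB51 and MYB122 were above Col-0 in every Athy5-2 library and MYB34 below it in every one.

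All 10 calls held without any 1 of the 6 libraries. Leaving out a library moved CYP79B2 between 2.77 and 3.34, SOT16 between 2.77 and 3.29 and MYB34 between -1.29 and -0.87. Ribosomal RNA reads took 23.3% to 33.4% of the Athy5-2 libraries of this group and 2.73% to 5.69% of the Col-0 ones. With the ribosomal share as a term in the fit, all 10 calls held, against 32.3% of all genes called in that fit. CYP79B2 was then at 3.10, SOT16 at 2.94, MYB51 at 2.99 and MYB34 at -0.94. The 10 root marker genes summed to 1172 to 1401 CPM in Athy5-2 and 2001 to 2205 CPM in Col-0, with 2 markers higher and 3 lower, and none of them was at 0 in either group. Of 4 shoot marker genes, 1 was higher and 3 were lower. The part of these markers in the result was not tested.

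At 24 °C and light 100, 6 of the 10 genes were higher in Athy5-2 than in Col-0 and 1 was lower, against 13.1% of all genes (5.44% higher and 7.63% lower), and the median was 0.70. Again MYB51 was high and MYB34 low. MYB51 had 33.2, 23.5 and 41.0 CPM in Athy5-2 against 6.82, 8.01 and 8.45 CPM in Col-0 (log2 difference 2.07 ± 0.40, edgeR adjusted p = 0.000391). MYB34 had 20.9, 24.6 and 20.9 CPM in Athy5-2 against 31.4, 36.7 and 37.6 CPM in Col-0 (-0.67 ± 0.15, edgeR adjusted p = 0.0021). The libraries of the 2 lines did not overlap, and both calls held without any 1 library. CYP81F2 (1.75 ± 0.47) and SOT16 (0.75 ± 0.20) were higher, but without Col-0 replicate 1 their adjusted p was 0.0638 and 0.0557. CYP79B2 (0.89 ± 0.30), UGT74B1 (0.65 ± 0.22) and CYP83B1 (0.54 ± 0.18) were higher, and each lost its call in 5 or 6 of the 6 fits without 1 library, so that the count of 7 became 2 to 5. The share of all genes called in those fits is not given, so this range describes the list alone. Here the Athy5-2 libraries held 0.535% to 0.710% ribosomal reads and the Col-0 ones 0.576% to 0.888%. The root markers summed to 1507 to 1680 CPM in Athy5-2 and 2090 to 2377 CPM in Col-0, and their part was not tested.

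At 16 °C, few of the 10 genes were called in Athy5-2 against Col-0. At light 100, 1 of the 10 genes was called, MYB51, which was lower (log2 difference -1.32 ± 0.40), against 22.2% of all genes (13.3% higher and 8.97% lower). It had 4.46, 5.12 and 5.81 CPM in Athy5-2 against 18.1, 13.7 and 6.79 CPM in Col-0, and its call was lost without Col-0 replicate 1 or Athy5-2 replicate 1 or 2. In this condition 3 of the 10 genes had an unadjusted p under 0.05 by edgeR. Fitted on the compared groups alone, 2 were called higher and 2 lower, against 24.7% of all genes. At light 10 MYB51 was also the gene called, at -1.06 ± 0.40, against 28.3% of all genes (14.6% higher and 13.6% lower). Without Col-0 replicate 1 it was at -0.19 and none of the 10 was called, against 26% of all genes. MYB51 thus lay above every Col-0 library in Athy5-2 at 24 °C under both light levels, and not at 16 °C.

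**Figure D3:**
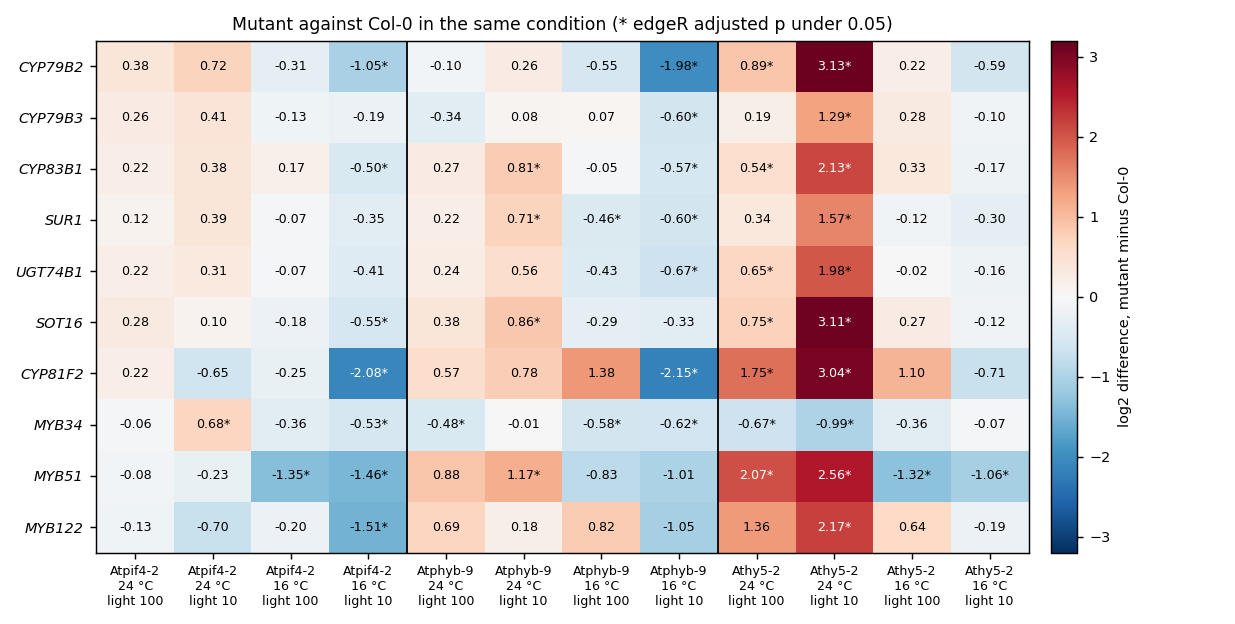
Log2 difference between each mutant and Col-0 in the same condition for the 10 genes (colour and printed value), with an asterisk where the edgeR adjusted p was under 0.05. The largest positive values stand in Athy5-2 at 24 °C and light 10, with CYP79B2 at 3.13, and MYB34 lies at -0.99 there. The calls of Atpif4-2 and Atphyb-9 at 16 °C and light 10 are all negative.

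In dim light the calls in Atphyb-9 had opposite signs at the 2 temperatures. At 24 °C and light 10, 4 of the 10 genes were higher and none lower, against 17.6% of all genes (8.57% higher and 9.01% lower). SUR1 had 51.5, 47.1 and 63.4 CPM in Atphyb-9 against 32.3, 33.0 and 33.5 CPM in Col-0 (log2 difference 0.71 ± 0.14, edgeR adjusted p = 0.000316), with no overlap, and kept its call without any 1 library. SOT16 (0.86 ± 0.20), CYP83B1 (0.81 ± 0.18) and MYB51 (1.17 ± 0.39) were higher too. These 3 rested on Atphyb-9 replicate 3: without it SOT16 was at 0.54, CYP83B1 at 0.46 and MYB51 at 0.65, and SUR1 alone was called. The share of all genes called without that library is not given. Fitted on the compared groups alone, 1 of the 10 genes was called, against 18.8% of all genes in that fit. CYP79B2 had 24.0, 32.1 and 70.9 CPM in Atphyb-9 against 34.1, 31.5 and 40.5 CPM in Col-0, overlapped, and was not called. Ribosomal reads took 12.6% to 26.1% of these Atphyb-9 libraries. With the ribosomal share as a term in the fit the same 4 genes were called, with SUR1 at 0.78 and MYB51 at 1.48. In that fit 9.9% of all genes were called.

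At 16 °C and light 10, 7 of the 10 genes were lower in Atphyb-9 and none higher, against 29.2% of all genes (14.7% higher and 14.5% lower). CYP79B2 had 14.9, 19.2 and 23.5 CPM in Atphyb-9 against 132, 47.7 and 46.98 CPM in Col-0. The groups did not overlap, and the log2 difference was -1.98 ± 0.32 (edgeR adjusted p = 1.44e-05). MYB34 had 9.83, 9.37 and 9.90 CPM in Atphyb-9 against 11.7, 15.4 and 17.7 CPM in Col-0 (-0.62 ± 0.16, edgeR adjusted p = 0.00293). SUR1 had 30.8, 35.1 and 36.4 CPM in Atphyb-9 against 56.0, 48.2 and 50.7 CPM in Col-0 (-0.60 ± 0.14, edgeR adjusted p = 0.0011). Without Col-0 replicate 1, 4 genes were lower, against 28.1% of all genes: CYP79B2 at -1.30, MYB34 at -0.77, SUR1 at -0.53 and CYP79B3 at -0.49. These 4 also kept their calls without any other library. CYP81F2 (-2.15), UGT74B1 (-0.67) and CYP83B1 (-0.57) lost theirs without Col-0 replicate 1, at -0.98, -0.27 and -0.20. Fitted on the compared groups alone, 3 genes were lower, against 22.4% of all genes called in that fit. In the same comparison 3 of the 4 shoot marker genes were higher in Atphyb-9, RBCS1A by 0.73, RCA by 0.88 and CA1 by 0.81 on the log2 scale, and the 4 summed to 71280 to 81340 CPM in Atphyb-9 and 43200 to 48490 CPM in Col-0. Of the 10 root markers, 3 were higher and none lower, and they summed to 1677 to 1803 CPM in Atphyb-9 and 1569 to 1763 CPM in Col-0. The part of these markers in the result was not tested.

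At light 100, 2 genes were called in Atphyb-9 at 16 °C and 1 at 24 °C. At 16 °C, MYB34 (-0.58 ± 0.15, edgeR adjusted p = 0.00749) and SUR1 (-0.46 ± 0.14, edgeR adjusted p = 0.0187) were lower, against 12.8% of all genes (7.23% higher and 5.55% lower). MYB34 lost its call without Atphyb-9 replicate 3, and SUR1 without any 1 of 4 libraries. Fitted on the compared groups alone, 1 gene was higher and 5 were lower at 16 °C, against 18.9% of all genes called in that fit. At 24 °C, MYB34 was lower (-0.48 ± 0.15, edgeR adjusted p = 0.0367), against 10.9% of all genes (4.95% higher and 5.93% lower), and lost its call without any 1 of 4 libraries. Ribosomal reads took 14.1% of Atphyb-9 replicate 1 there, and 1.47% and 0.688% of replicates 2 and 3. With the ribosomal share as a term in the fit the count was 0, against 8.99% of all genes. With all libraries and no ribosomal term, MYB34 was thus called lower in Atphyb-9 in 3 of the 4 conditions. It was not called at 24 °C and light 10, where its log2 difference was -0.01.

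Atpif4-2 had no call or 1 call among the 10 genes in 3 of the 4 conditions. At 24 °C and light 100 none of the 10 genes was called, against 0.447% of all genes by edgeR (0.245% higher and 0.202% lower). None had an unadjusted p under 0.05, and DESeq2 called 0 as well. At 24 °C and light 10, 1 gene was called, MYB34, against 4.26% of all genes (2.05% higher and 2.22% lower). MYB34 had 21.4, 22.9 and 17.6 CPM in Atpif4-2 against 13.03, 13.5 and 12 CPM in Col-0, with no overlap (log2 difference 0.68 ± 0.16, edgeR adjusted p = 0.00661), and without Atpif4-2 replicate 2 the adjusted p was 0.0558. At 16 °C and light 100, MYB51 was lower (-1.35 ± 0.40, edgeR adjusted p = 0.0422), against 4.77% of all genes (1.93% higher and 2.85% lower), and the call was lost without any 1 of 5 libraries.

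At 16 °C and light 10, 7 of the 10 genes were lower in Atpif4-2, against 20.7% of all genes (10.1% higher and 10.6% lower), with CYP81F2 at -2.08 ± 0.50, MYB122 at -1.51 ± 0.52, MYB51 at -1.46 ± 0.40, CYP79B2 at -1.05 ± 0.31, SOT16 at -0.55 ± 0.20, MYB34 at -0.53 ± 0.16 and CYP83B1 at -0.50 ± 0.18. Without Col-0 replicate 1 the count was 1, against 19.9% of all genes. The gene was MYB34, at -0.67 (edgeR adjusted p = 0.00396), which had 12.7, 10.2 and 8.11 CPM in Atpif4-2 against 15.4 and 17.7 CPM in the other 2 Col-0 libraries. With all libraries, MYB34 lost its call without Col-0 replicate 2 or 3 or Atpif4-2 replicate 3. CYP79B2 had 36.5, 31.1 and 42.1 CPM in Atpif4-2, below the 47.7 and 46.98 CPM of those Col-0 libraries, and was at -0.37 without replicate 1. The 4 shoot markers summed to 59320 to 72090 CPM in Atpif4-2 and 43200 to 48490 CPM in Col-0, with 2 higher and none lower, and their part was not tested.

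**Figure D4:**
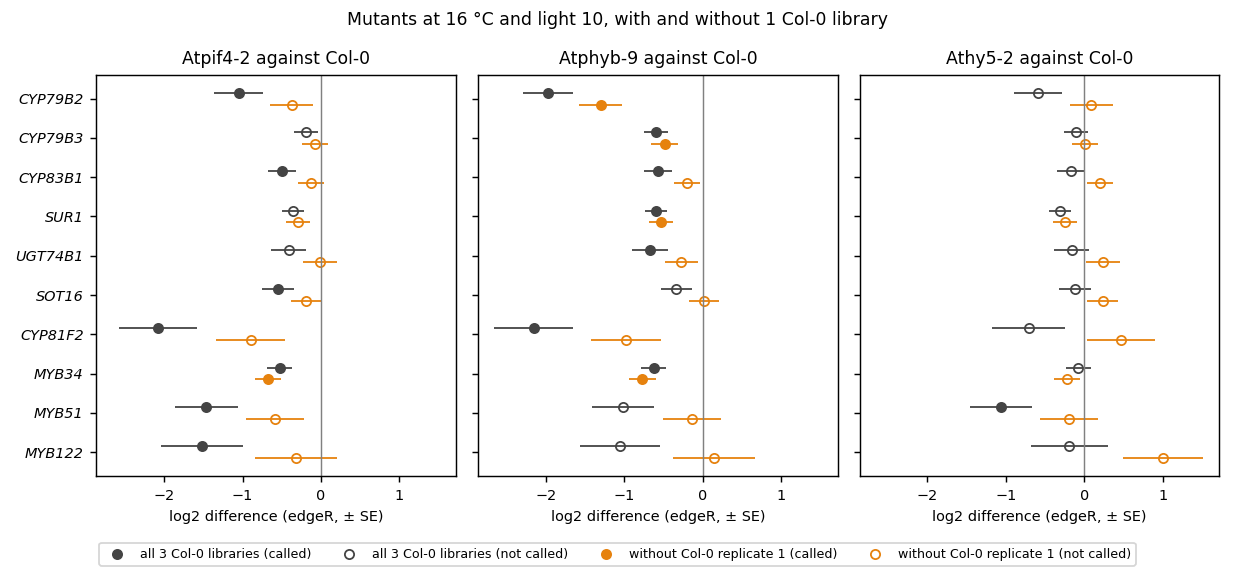
Log2 difference between each mutant and Col-0 at 16 °C and light 10 for the 10 genes, with all 3 Col-0 libraries (grey) and without Col-0 replicate 1 (orange), from the edgeR fit with the SE as bars; filled points were called. The calls number 7, 7 and 1 in Atpif4-2, Atphyb-9 and Athy5-2 with all libraries and 1, 4 and 0 without the library.

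The response to warmth, averaged over both light levels, was more positive in each mutant than in Col-0 for several of the genes, and this was tested as a difference of effects. These 3 comparisons share the Col-0 libraries. In Athy5-2 it differed for all 10 genes, 9 upward and MYB34 downward, against 28.8% of all genes (12.7% higher and 16.1% lower). MYB51 had a log2 warmth effect higher by 3.51 ± 0.40 (edgeR adjusted p = 4.65e-08), CYP81F2 by 2.20 ± 0.47, CYP79B2 by 2.20 ± 0.31, SOT16 by 1.85 ± 0.20 and UGT74B1 by 1.404 ± 0.223. For MYB34 the difference was -0.62 ± 0.16 (edgeR adjusted p = 0.00273). Read as ratios of group means, 24 over 16 °C, MYB51 changed 6.35 times at light 100 and 6.29 times at light 10 in Athy5-2, against 0.604 and 0.510 times in Col-0. CYP79B2 changed 1.28 times at light 100 and 6.15 times at light 10 in Athy5-2, against 0.804 and 0.467 times in Col-0. With Col-0 replicate 1 at 16 °C and light 10 left out of its group mean, the Col-0 ratio at light 10 was 0.933 for MYB51 and 0.747 for CYP79B2. Without Col-0 replicate 1 at 16 °C and light 10, 9 of the 10 held, against 27% of all genes, with MYB51 at 3.07 and CYP79B2 at 1.86, and MYB122 was the gene lost.

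In Atphyb-9 the warmth effect was higher for 6 genes, against 22.5% of all genes (10.1% higher and 12.4% lower): MYB51 by 1.95 ± 0.39 (edgeR adjusted p = 0.000346), CYP79B2 by 1.34 ± 0.31, SUR1 by 1.00 ± 0.14, UGT74B1 by 0.95 ± 0.22, SOT16 by 0.93 ± 0.20 and CYP83B1 by 0.85 ± 0.18. All 6 held without any 1 library, and MYB51 was at 1.51 and CYP79B2 at 1.01 without Col-0 replicate 1 at 16 °C and light 10. MYB34 differed by 0.36 (edgeR adjusted p = 0.096) with all libraries and was not called, but without that Col-0 library it was called higher, at 0.43 (edgeR adjusted p = 0.0379), so that 7 genes were called against 22.1% of all genes. In Atpif4-2 it was higher for 5 genes, against 12% of all genes (5.74% higher and 6.27% lower): MYB51 by 1.25 ± 0.40, CYP79B2 by 1.23 ± 0.30, MYB34 by 0.75 ± 0.16, CYP79B3 by 0.49 ± 0.15 and SUR1 by 0.47 ± 0.14. Without that Col-0 library 3 of these were called, against 13% of all genes: CYP79B2 at 0.89, MYB34 at 0.82 and SUR1 at 0.44. Of 24 fits without 1 library, MYB51 lost its call in 9 and CYP79B3 in 5. With all libraries and without that one, the warmth effect of MYB34 was called higher in Atpif4-2 and lower in Athy5-2.

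The response to light, averaged over both temperatures, was tested in the same way. In Athy5-2 it was lower than in Col-0 for 4 genes, against 26.1% of all genes (13.4% higher and 12.7% lower): SOT16 by a difference of -0.99 ± 0.20 (edgeR adjusted p = 0.000364), UGT74B1 at -0.59 ± 0.22, CYP83B1 at -0.55 ± 0.18 and SUR1 at -0.52 ± 0.14. The 2 temperatures did not show this alike. At 24 °C the ratio of group means, light 100 over light 10, was lower in Athy5-2 for all 4 genes: 0.221 against 1.14 in Col-0 for SOT16, 0.779 against 1.95 for UGT74B1, 0.604 against 1.82 for CYP83B1 and 1.18 against 2.76 for SUR1. At 16 °C it was higher in Athy5-2 for all 4: 1.60 against 1.22 in Col-0 for SOT16, 1.94 against 1.76 for UGT74B1, 2.01 against 1.43 for CYP83B1 and 3.2 against 2.81 for SUR1. With Col-0 replicate 1 left out of its group mean at 16 °C and light 10, the Col-0 ratio at 16 °C was 1.56 for SOT16, 1.84 for CYP83B1 and 2.93 for SUR1, still below Athy5-2, and 2.32 for UGT74B1, above it. The difference between the temperatures was not tested. SOT16 and SUR1 held without any 1 library. UGT74B1 was lost in 14 of 24 such fits and CYP83B1 without Athy5-2 replicate 1 at 24 °C and light 10, which left 2 calls. For the fit that left 2 calls, the share of all genes is not given. Without Col-0 replicate 1 at 16 °C and light 10, 6 genes were called lower, against 28% of all genes. In Atphyb-9 CYP81F2 was called at 1.66 ± 0.47 (edgeR adjusted p = 0.0267), against 7.92% of all genes (4.53% higher and 3.39% lower), and lost its call in 5 of 24 fits without 1 library, among them that without Col-0 replicate 1 at 16 °C and light 10, where 10.3% of all genes were called. In Atpif4-2 none of the 10 was called by edgeR, against 0.793% of all genes (0.574% higher and 0.219% lower), with 1 at an unadjusted p under 0.05 and 0 by DESeq2. Again none was called without Col-0 replicate 1 at 16 °C and light 10, against 0.917% of all genes.

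Genes that feed the pathway were listed with the same knowledge of earlier results. In Athy5-2 at 24 °C and light 10, where 46.5% of all genes were called, all 6 tryptophan synthesis genes measured were higher than in Col-0, with a median of 2.67 beside the 2.15 of the 10 pathway genes: TSB1, a tryptophan synthase subunit gene, at 2.80, PAT1, the phosphoribosylanthranilate transferase gene, at 2.19, ASB1, an anthranilate synthase subunit gene, at 3.09, and TSB2 at 2.52. All 3 cofactor genes were higher. APK2, which makes the sulfate donor that SOT16 uses, was at 3.67 and APK1 at 1.47, and GSH1, the first enzyme of glutathione synthesis, was at 1.20. Of 9 other genes of indole glucosinolate synthesis and decoration, 6 were higher and 2 lower. GSTF9 (2.69) and GSTF10 (2.43), glutathione transferases of the sulfur step, and GGP1 (1.90), the peptidase after it, were higher, while the hydroxylase gene CYP81F4 was lower (-0.93), unlike its relative CYP81F2.

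At 24 °C and light 100 in Athy5-2, where 13.1% of all genes were called, the 6 tryptophan genes were again all higher, with a median of 1.10, and 2 of the 3 cofactor genes were. In Atphyb-9 at 16 °C and light 10, 3 of the 6 tryptophan genes and all 3 cofactor genes were lower, against 29.2% of all genes called. When Col-0 replicate 1 was left out, 1 tryptophan gene was lower and 1 higher and 2 cofactor genes were lower, against 28.1% of all genes. Of 6 genes for other products of indole-3-acetaldoxime, 5 were higher in Athy5-2 at 24 °C and light 10, among them PAD3 (3.67) and CYP71A12 (2.89) of camalexin synthesis and the nitrilase genes NIT1 (0.87) and NIT2 (1.49). Of 6 transport and breakdown genes, 3 were higher and 2 lower, with the myrosinase gene TGG2 at 1.45 and TGG1 at -1.10, and the hydrolase gene PEN2 at 0.72 and transporter gene PEN3 at 1.17. Of 5 MYC and other regulator genes, 1 was higher and 2 lower, with IQD1 at -1.17. The 46.5% of all genes called in that comparison stand beside these counts, and so few regulators cannot be set apart from it. In Col-0, light at 24 °C raised 2 of the 6 tryptophan genes and 2 of the 3 cofactor genes and lowered none, against 28.6% of all genes called.

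The aliphatic glucosinolates, which derive from methionine, share the plan of the pathway, and 10 of their synthesis genes were counted in the same way. In Col-0 at 24 °C all 10 were higher at light 100 than at light 10, against 28.6% of all genes called, with a median log2 change of 5.91 beside the 0.87 of the indole genes. In Athy5-2 at 24 °C and light 10, 9 were higher and 1 lower than in Col-0, against 46.5% of all genes called, with a median of 2.79. The difference between the 2 lists was not tested.

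Correlations of some pairs of the indole genes are given across the 16 group means of log2 CPM, which share lines and conditions and carry no p. CYP83B1 and UGT74B1 had r = 0.969, CYP79B2 and UGT74B1 r = 0.940 and CYP79B2 and CYP83B1 r = 0.927. MYB122 and CYP81F2 had r = 0.950 and MYB51 and MYB122 r = 0.863. MYB34 had r = -0.398 with MYB51, r = -0.464 with MYB122 and r = 0.639 with SUR1. With the other enzyme genes its r was 0.331 (UGT74B1), 0.273 (CYP79B2), 0.242 (CYP79B3), 0.222 (CYP83B1), -0.299 (CYP81F2) and -0.324 (SOT16). Over the Col-0 libraries alone, MYB51 and MYB122 had r = 0.449. There MYB34 had r = -0.232 with MYB51, r = -0.494 with MYB122 and r = 0.9 with SUR1. Its r in Col-0 was 0.799 with UGT74B1, 0.731 with CYP83B1, 0.64 with CYP79B2 and 0.62 with CYP79B3. With SOT16 it was 0.328 and with CYP81F2 -0.551. The 3 closest genes were sought for 6 of the 10, among 6506 other genes with a mean of at least 5 CPM and a symbol. The closest to CYP79B2 were AKN2, another symbol of APK2 (r = 0.946), GSH1 (r = 0.922) and TAAC (r = 0.916). The closest to CYP83B1 were AKN2 (r = 0.976), TRP1, another symbol of PAT1 (r = 0.945), and the ATP sulfurylase gene APS1 (r = 0.940). MYB51 was closest to YSL3 (r = 0.925), ATAF2 (r = 0.923) and the defence regulator gene WRKY33 (r = 0.918). MYB122 was closest to the glutathione transferase genes GSTF7 (r = 0.960) and GSTU12 (r = 0.948) and to CYP71B6 (r = 0.919), and CYP81F2 to GSTF7 (r = 0.945), CRK11 (r = 0.914) and CYP71A12 (r = 0.904). MYB34 was closest to PMEAMT (r = 0.961), ALDH3I1 (r = 0.946) and FUS12 (r = 0.943).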

How the data were processed

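Per the labels' protocols, total RNA was sequenced in 100-base read pairs. The submitters' processing notes name FastQC 0.11.5 and HISAT2 2.1.0. No genome build or counting tool is given in the sources used. The deposited Arabidopsis table holds whole-number counts per gene, unnormalized, per the values of the file, and tables of the 3 other species were not used. Counts of 48 libraries were scaled by TMM and fitted with edgeR 4.0.16 (R 4.3.3) with 1 mean per group, robust quasi-likelihood and a minimum count of 10. This left 22828 genes and 32 residual degrees of freedom. Genes with a Benjamini-Hochberg adjusted p under 0.05 over all genes were called. CPM are TMM-scaled. DESeq2 1.42.0 was an alternative, and the fit was tested on simulated data. The 10 genes and all lists were chosen with earlier results of these data known. All 10 are named. Other lists are given by counts and, for those named, up to 4 genes of smallest adjusted p. IGPS and UGT74C1 were dropped because the reference table gives their identifiers no such symbol. MYC2, at 0 in most libraries, is counted in its list but its changes are not described. Sequences and exon lengths are from RefSeq's TAIR10.1. No replicate pair differed by less than counting noise.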

Additional observations from a re-analysis of the deposited data

Results flagged for a closer look

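The warmth effect differed between light levels in Col-0 for CYP79B3, by 0.95 on the log2 scale (edgeR adjusted p = 0.00314), and for CYP81F2, by 2.15 (edgeR adjusted p = 0.0439), the second call being lost in 9 of 12 fits without 1 library. Effects of warmth averaged over light also differed between Athy5-2 and Col-0, with MYB51 at 3.51, CYP81F2 at 2.20, CYP79B2 at 2.20, SOT16 at 1.85, MYB122 at 1.54, UGT74B1 at 1.404, CYP83B1 at 1.26, SUR1 at 1.17, CYP79B3 at 0.65 and MYB34 at -0.62. Between Atphyb-9 and Col-0 the same effect differed for MYB51 at 1.95, CYP79B2 at 1.34, SUR1 at 1.00, UGT74B1 at 0.95, SOT16 at 0.93 and CYP83B1 at 0.85. Between Atpif4-2 and Col-0 it differed for MYB51 at 1.25, CYP79B2 at 1.23, MYB34 at 0.75, CYP79B3 at 0.49 and SUR1 at 0.47. The effect of light averaged over temperature differed between Athy5-2 and Col-0 for SOT16 at -0.99, UGT74B1 at -0.59, CYP83B1 at -0.55 and SUR1 at -0.52, and between Atphyb-9 and Col-0 for CYP81F2 at 1.66. All of these are edgeR tests of the difference itself, over all genes. Some calls were lost without the Col-0 library that stood apart. Among them were the warmth differences of MYB51 (edgeR adjusted p = 0.113) and CYP79B3 (0.0565) in Atpif4-2 and of MYB122 (0.118) in Athy5-2. The light difference of CYP81F2 in Atphyb-9 was lost too (edgeR adjusted p = 0.078). The light differences of UGT74B1 and CYP83B1 in Athy5-2 were lost in other fits without 1 library.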

How the results depend on the processing

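No value turned its direction among calls under any alternative. Of 230 gene values, RLE scaling changed no call, DESeq2 lost none and gained 8, no filter on low counts lost 8, the ribosomal share as a term lost 9 and gained 3, and fitting only the groups compared lost 26 and gained 19. The median over all genes moved by at most 0.04 under RLE scaling. Counts of the 10 genes called that moved are given next, with the share of all genes called in the same fit in brackets. Fitted on the compared groups alone, they became 2 for Col-0 warmth at light 10 (23.8%), 2 for Col-0 light at 16 °C (39.6%) and 1 for their interaction (13%). In Atpif4-2 they became 5 (24 °C, light 10, 9.32%), 2 (16 °C, light 100, 5.95%) and 0 (16 °C, light 10, 7.98%). In Atphyb-9 the 24 °C counts became 0 (light 100, 11%) and 1 (light 10, 18.8%). Its 16 °C counts became 6 (light 100, 18.9%) and 3 (light 10, 22.4%). In Athy5-2 they became 4 and 0 at 16 °C under light 100 and light 10, and the Atphyb-9 light difference became 0. Without the filter, the interaction count was 1 (4.93%), Atpif4-2 at 16 °C and light 100 was 0 (3.27%) and Athy5-2 at 16 °C and light 10 was 0 (20.5%). With the ribosomal share, Atphyb-9 at 24 °C and light 100 (8.99%) and Athy5-2 at 16 °C and light 100 (14.1%) were 0. The cause was not tested. Leaving out 1 library gave counts of 1 to 3 for Col-0 warmth at light 100, 1 to 5 at light 10, 5 to 6 for light at 16 °C, 1 to 2 for the interaction, 0 to 1 for Atpif4-2 in warm dim (24 °C, light 10) and in cool bright (16 °C, light 100) conditions, and 1 to 6 in cool dim ones (16 °C, light 10). For Atphyb-9 the counts were 0 to 1 in warm bright, 1 to 5 in warm dim, 0 to 2 in cool bright and 4 to 9 in cool dim conditions. For Athy5-2 they were 2 to 5 at 24 °C and light 100 and 0 to 1 at 16 °C under both light levels. The warmth differences gave 3 to 7 in Atpif4-2, 6 to 7 in Atphyb-9 and 9 to 10 in Athy5-2, and the light differences 0 to 1 in Atphyb-9 and 2 to 6 in Athy5-2. These ranges stand without the share of all genes called in each fit, so they describe the list alone.

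Same-numbered replicates did not deviate together (median r -0.00458, against 0.00225 for other numbers), so the numbers do not pair the libraries. With a replicate block the interaction count was 1, against 6.87% of all genes, and Athy5-2 at 16 °C and light 10 was 0, against 27.9%. Under that block 6 of 230 gene calls were lost. MYB122 had the fewest reads, so its differences are the least precise.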
